A study of Mus musculus with 10 samples.

Results

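The 10 genes described here are feedback genes of the ERK pathway: the phosphatase genes Dusp4, Dusp5 and Dusp6, the Sprouty genes Spry1, Spry2 and Spry4, the Spred genes Spred1 and Spred2, and the transcription factor genes Etv4 and Etv5. They were chosen by symbol, and all 10 were found among the 18994 genes of the deposited table. All 10 also passed the filter on low counts, which kept 15250 genes. The samples were cheek skin of healthy C57BL/6 mice, 6 to 8 weeks old, shaved on the cheek 3 days before a single intradermal injection on the right side. In the MMP9 group, 5 mice received 1 µg of matrix metalloproteinase 9, a secreted gelatinase, in 5 µL, and in the vehicle group 5 mice received the same volume of vehicle, whose composition, like the sex of the mice, no source used here gives. Tissue was taken 4 hours after the injection, and each library is 1 mouse. The whole cheek tissue was sequenced, so a transcript level cannot tell fewer cells of a type apart from less RNA in each cell.

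ERK is the last kinase of a cascade in which activated growth factor receptors switch on Ras, Ras recruits Raf kinases, Raf activates MEK, and MEK activates ERK. Active ERK induces inhibitors of its own pathway, which act at different steps: Sprouty and Spred proteins restrain signalling around Ras and Raf, and dual-specificity phosphatases remove the activating phosphates from ERK itself. Etv4 and Etv5 are transcription factors of the ETS family that are commonly induced by receptor signalling through ERK, that of fibroblast growth factors above all. In skin the pathway serves epidermal growth and repair and the growth of hair follicles, and transcripts of these genes are widely used as a readout of its recent activity. The comparison asks whether this set of transcripts differed between skin given MMP9 and skin given vehicle.

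RefSeq promoter sequences (build GRCm38.p6) were at hand for 7 of the 10 genes (all but Dusp4, Spry4 and Etv4), in 8 promoters, and the 250 bases before each gene's start were searched on both strands for 4 short motifs through which signals downstream of growth factors are known to reach promoters. The motifs were the ETS motif GGAAGT, the AP-1 motif TGANTCA, the CRE half-site TGACG and the CArG box, which serum response factor binds. The ETS motif lay in 3 of the 8 promoters, against 19.7% of the 32851 promoters in the table. They were those of Dusp5 and Spred2 and 1 of Etv5, which had another promoter without it. The half-site lay in those of Dusp5 and Spred2, against 17.8% of all promoters. The CArG box lay in that of Dusp5, against 1.47%, and the AP-1 motif in none of the 8, against 6.75%. Printed below are the promoters of Dusp5, the gene that followed the other members most closely between mice, and of Spred2, the member whose interval in the comparison was clear of 0. Capitals mark the motifs, as read on either strand. In Dusp5 they are the ETS motif, 2 CArG boxes that start 82 and 72 bases before the gene's start and touch without overlapping, and the half-site. In Spred2 they are the half-site and the ETS motif. The motifs were chosen after these sequences were seen, so the percentages are given as a description and test no enrichment. A match of letters is likewise a description and not a measured binding site.
Dusp5, chr19:53528895-53529144, plus strand: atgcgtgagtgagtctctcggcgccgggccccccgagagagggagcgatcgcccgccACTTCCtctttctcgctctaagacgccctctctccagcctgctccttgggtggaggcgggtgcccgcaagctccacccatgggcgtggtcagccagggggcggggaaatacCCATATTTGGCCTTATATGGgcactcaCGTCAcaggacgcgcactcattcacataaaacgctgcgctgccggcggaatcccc
Spred2, chr11:19924192-19924441, plus strand: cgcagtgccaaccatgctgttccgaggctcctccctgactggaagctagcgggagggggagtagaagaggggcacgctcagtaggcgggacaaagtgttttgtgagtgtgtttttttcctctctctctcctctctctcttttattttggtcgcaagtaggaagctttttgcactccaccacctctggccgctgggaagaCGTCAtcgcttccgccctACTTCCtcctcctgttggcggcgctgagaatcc

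The libraries held between 17121541 and 19443099 estimated counts, and a member had between 78 and 1770 counts in a library. Epidermal keratinocyte markers were present in every library, with a summed level of 6740 to 14200 TPM (transcript abundance scaled to a fixed total per library) in vehicle and 6690 to 11900 TPM in MMP9. Skeletal muscle markers were also abundant, at 14900 to 28600 and 15000 to 28200 TPM. Some libraries stood apart. In MMP9 mouse 4, transcripts of 85 ribosomal protein genes made up 24.4% of all TPM, against 15.6% to 17.1% in the other 9 libraries. Hair shaft markers summed to 1.14 TPM in vehicle mouse 2 and 1.87 TPM in MMP9 mouse 1, against 289 to 2310 TPM in the rest. Between the groups, 5 of 5 fibroblast markers had positive log2 fold changes (median 0.17), while 6 of 6 hair shaft markers (median -1.25), 7 of 7 markers of the hair matrix and inner root sheath (median -1.16), 5 of 5 melanocyte markers (median -0.53) and 5 of 5 endothelial markers (median -0.12) had negative ones. None of these markers passed edgeR's test after adjustment, and no hair or melanocyte marker had an unadjusted edgeR p under 0.05. The fibroblast marker Lum (log2 fold change 0.66, unadjusted edgeR p 0.0254) and the endothelial marker Plvap (-0.28, 0.0247) did, against 3.19% of all tested genes. For Plvap all MMP9 libraries lay below all vehicle libraries in CPM, where 0.138% of the tested genes did. The hair values were imprecise, with a 95% interval from -4.17 to 1.53 for Krt81 of the hair shaft. The part of these differences in the members' values was not tested beyond the values given without the libraries that stood apart.

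By TPM, which allows for transcript length and so permits comparison between genes, Spry1 was the most abundant member. It stood at 45.7 ± 8.74 TPM (SD over the 10 libraries) and was above every other member in each of them. A middle group followed with Dusp6 at 19.8 ± 4.06, Spred1 at 19.7 ± 3.56, Spry2 at 18.9 ± 2.58, Dusp5 at 18.8 ± 4.70 and Spred2 at 15.0 ± 3.22 TPM. The order within the middle group was not fixed: Dusp6 exceeded Spred1 in 6 of 10 libraries, Spred1 exceeded Spry2 in 6 and Spry2 exceeded Dusp5 in 5. Etv4 at 6.18 ± 1.91, Etv5 at 4.89 ± 0.985 and Dusp4 at 4.76 ± 1.13 TPM formed a lower group. Etv4 was above Etv5 in 8 of 10 libraries and Etv5 above Dusp4 in 6. Spry4 was the lowest member at 2.54 ± 0.739 TPM, below Dusp4 in all 10. Between mice the members varied about as much as other genes: the coefficient of variation of their CPM had a median of 16.1%, against 16.3% over the 14621 tested genes of at least 1 CPM.

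In the comparison of MMP9 with vehicle, none of the 10 feedback genes passed the test, where 0% of all tested genes did. The fitted log2 fold change was negative for 8 members and positive for 2, Spry2 and Spred1, while 46.3% of all tested genes had negative values. The median over the members was -0.14, against 0.01 over all tested genes. For 9 of the 10 members the 95% interval of the log2 fold change included 0. The intervals ran at their widest from -0.75, for Etv4, to 0.33, for Spry4, which correspond to 0.593-fold and 1.26-fold. For no member did all MMP9 libraries lie below all vehicle libraries, where 0.138% of the tested genes did, nor above them, where 0.426% did. At an unadjusted p under 0.05 there was 1 member, Spred2, against 3.19% of all tested genes, and between 0 and 2 members under the 21 alternative settings and omissions of mice. The test was edgeR's quasi-likelihood test with Benjamini-Hochberg adjustment over all 15250 genes, and levels below are CPM (counts relative to library size, scaled with edgeR's TMM factors).

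**Figure D1:**
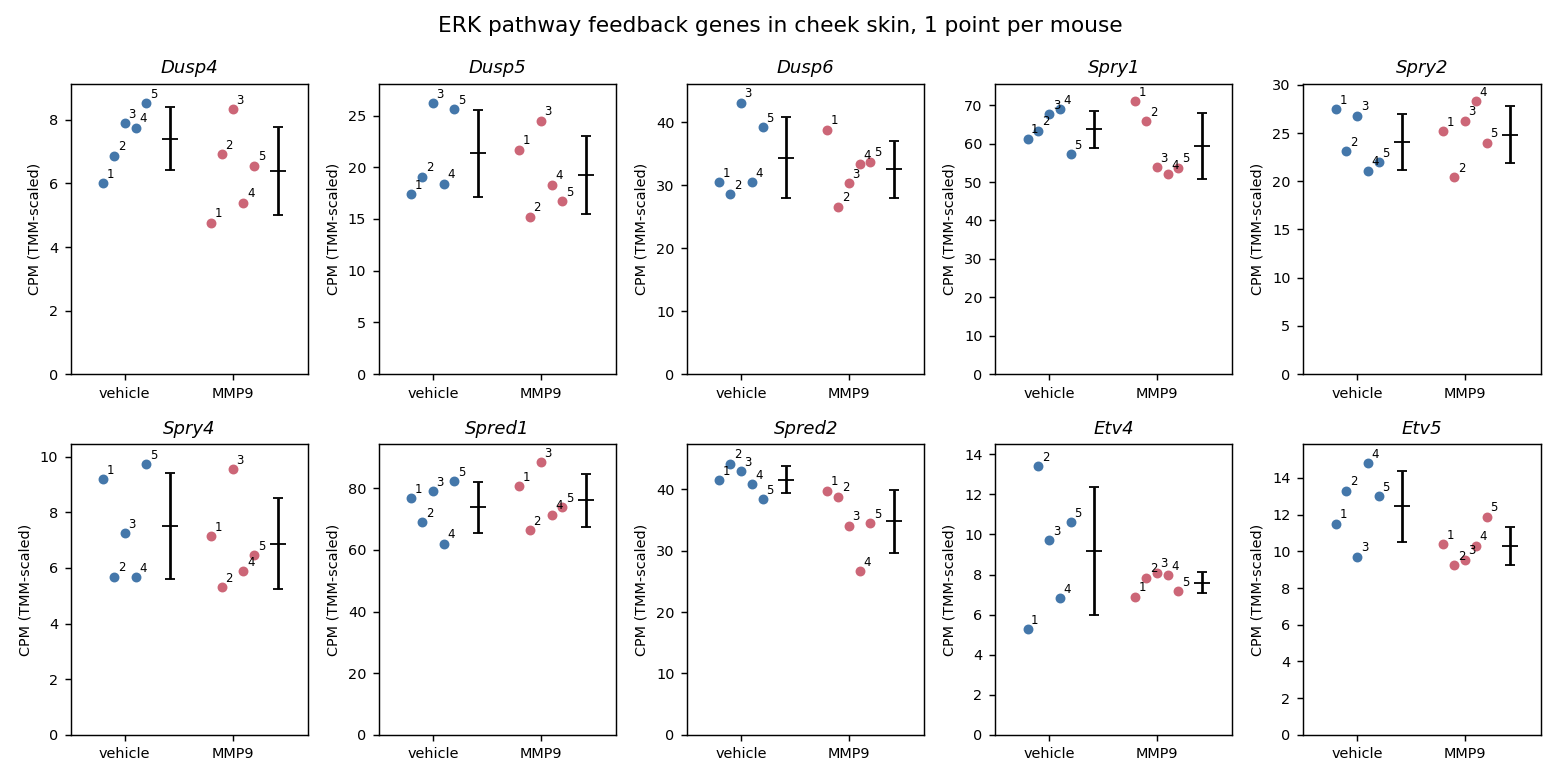
Level of each feedback gene in every library, in TMM-scaled CPM (vertical axes start at 0), with vehicle in blue, MMP9 in red, the mouse number beside each point, and the group mean with its SD in black. The groups overlap in all 10 genes. Etv4 spreads from 5.28 to 13.4 CPM in vehicle and from 6.89 to 8.09 CPM in MMP9.

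Among the phosphatases, Dusp6 encodes a cytoplasmic enzyme with high selectivity for ERK. Dusp6 was measured at 30.5, 28.6, 43.1, 30.5 and 39.2 CPM in vehicle mice 1 to 5 and at 38.8, 26.6, 30.3, 33.3 and 33.7 CPM in MMP9 mice 1 to 5. Vehicle mice 3 and 5 and MMP9 mouse 1 were the high ones, and the groups overlapped widely. The means were 34.4 ± 6.35 and 32.5 ± 4.50 CPM (SD, n = 5), and the log2 fold change was -0.08 (standard error 0.14, edgeR adjusted p 0.981). Without vehicle mouse 3 the value was 0.01.

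Dusp5, which encodes a nuclear phosphatase specific for ERK, stood at 17.4, 19.1, 26.2, 18.4 and 25.6 CPM in the vehicle mice and at 21.7, 15.2, 24.5, 18.3 and 16.7 CPM in the MMP9 mice. Each group thus held high and low mice, with vehicle mice 3 and 5 and MMP9 mouse 3 at the top. Its log2 fold change was -0.15 (standard error 0.16, edgeR adjusted p 0.981), with -0.25 without MMP9 mouse 3 and -0.06 without vehicle mouse 3. Dusp4, the gene of another nuclear phosphatase, which also acts on other MAP kinases, was at 6.01, 6.88, 7.90, 7.76 and 8.52 CPM in the vehicle mice and 4.77, 6.93, 8.34, 5.40 and 6.56 CPM after MMP9. MMP9 mice 1 and 4 lay below every vehicle mouse, while MMP9 mouse 3 was the second highest of all 10. The means of Dusp4 were 7.41 ± 0.977 and 6.40 ± 1.39 CPM, and its log2 fold change was -0.21 (standard error 0.17, edgeR adjusted p 0.981), with -0.33 without MMP9 mouse 3 and -0.12 without MMP9 mouse 1.

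The Sprouty genes encode membrane-associated inhibitors of receptor signalling. Spry1 was at 61.3, 63.4, 67.6, 68.9 and 57.2 CPM in the vehicle mice and 71.0, 65.9, 53.8, 52.0 and 53.7 CPM after MMP9. In the MMP9 group it was split, with mouse 1 above all vehicle mice and mice 3, 4 and 5 below all of them. The log2 fold change of Spry1 was -0.10 (standard error 0.11), with -0.18 without MMP9 mouse 1 and -0.06 without MMP9 mouse 4. Spry2 had 27.5, 23.1, 26.8, 21.1 and 22.0 CPM in the vehicle mice and 25.2, 20.4, 26.3, 28.3 and 24.0 CPM after MMP9. Its groups covered almost the same range, and its 95% interval ran from -0.20 to 0.29 around a log2 fold change of 0.04. Spry4 had 9.19, 5.68, 7.24, 5.67 and 9.72 CPM in the vehicle mice and 7.15, 5.31, 9.54, 5.89 and 6.45 CPM after MMP9. Mice near 9 CPM and mice near 6 CPM occurred in both groups, and the log2 fold change of Spry4 was -0.13 (standard error 0.21). It was -0.28 without MMP9 mouse 3 and -0.02 without vehicle mouse 5. The edgeR adjusted p was 0.981 for Spry1 and Spry4 and 0.986 for Spry2.

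The Spred proteins bind neurofibromin, an inactivator of Ras, and bring it to the membrane. Spred2 had 41.5, 44.2, 43.0, 40.8 and 38.4 CPM in the vehicle mice and 39.8, 38.8, 34.1, 26.7 and 34.5 CPM after MMP9. The vehicle mice lay close together, MMP9 mice 3, 4 and 5 lay below all of them, and MMP9 mice 1 and 2 lay above the lowest vehicle mouse. The means of Spred2 were 41.6 ± 2.20 and 34.8 ± 5.19 CPM (SD, n = 5), and its log2 fold change was -0.26 (standard error 0.11, interval from -0.49 to -0.02). Its unadjusted p was 0.0335, rank 296 of the 15250 tested genes, and its edgeR adjusted p was 0.981. The lowest value belonged to MMP9 mouse 4, the library with the high share of ribosomal protein transcripts, and without that mouse the log2 fold change was -0.18 with an unadjusted p of 0.0239. Over the 21 alternatives the unadjusted p of Spred2 ran from 0.017 to 0.186, at or above 0.05 in 9 of them, among these the omission of vehicle mouse 1, 2 or 3 or of MMP9 mouse 3 or 5. Spred1, the member with the most counts, had 76.8, 69.0, 79.0, 62.0 and 82.3 CPM in the vehicle mice and 80.7, 66.4, 88.4, 71.4 and 73.8 CPM after MMP9. All but the highest MMP9 mouse lay inside the vehicle range, and the log2 fold change of Spred1 was 0.04 (standard error 0.11, edgeR adjusted p 0.986).

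Etv5 stood at 11.5, 13.3, 9.71, 14.8 and 13.0 CPM in vehicle and at 10.4, 9.25, 9.54, 10.3 and 11.9 CPM in MMP9. All 5 MMP9 mice were below the vehicle mean, 2 of them below every vehicle mouse, but vehicle mice 1 and 3 lay inside the MMP9 range. The means were 12.5 ± 1.93 and 10.3 ± 1.04 CPM, and its log2 fold change was -0.28 (standard error 0.13, unadjusted p 0.0551, edgeR adjusted p 0.981). Its unadjusted p was under 0.05 in 4 of the 21 alternatives, at 0.0124 without vehicle mouse 3 and 0.0419 by DESeq2 among them. Etv5 and Spred2 were the 2 members for which the gap between the group means exceeded both SDs.

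Etv4 had 5.28, 13.4, 9.71, 6.83 and 10.6 CPM in the vehicle mice and 6.89, 7.84, 8.09, 7.97 and 7.16 CPM after MMP9. All 5 MMP9 values lay inside the vehicle range, and the SD was 3.19 CPM in the vehicle mice and 0.532 CPM after MMP9; this difference in spread was noticed in the data and was not tested. The log2 fold change of Etv4 was -0.27 (standard error 0.22, edgeR adjusted p 0.981). The highest value came from vehicle mouse 2, in which hair shaft transcripts were nearly absent. That mouse also had the highest summed keratinocyte markers, at 14200 TPM, and sebaceous gland markers, at 3550 TPM, of all 10 libraries. In MMP9 mouse 1, the other library nearly without hair shaft transcripts, Etv4 was the lowest of the MMP9 mice, at 6.89 CPM. Without vehicle mouse 2 the log2 fold change was -0.09, and without both hair-poor libraries, vehicle mouse 2 and MMP9 mouse 1, it was -0.06. Without vehicle mouse 1 it was -0.42, with an unadjusted edgeR p of 0.0434 and an adjusted p of 0.974.

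**Figure D2:**
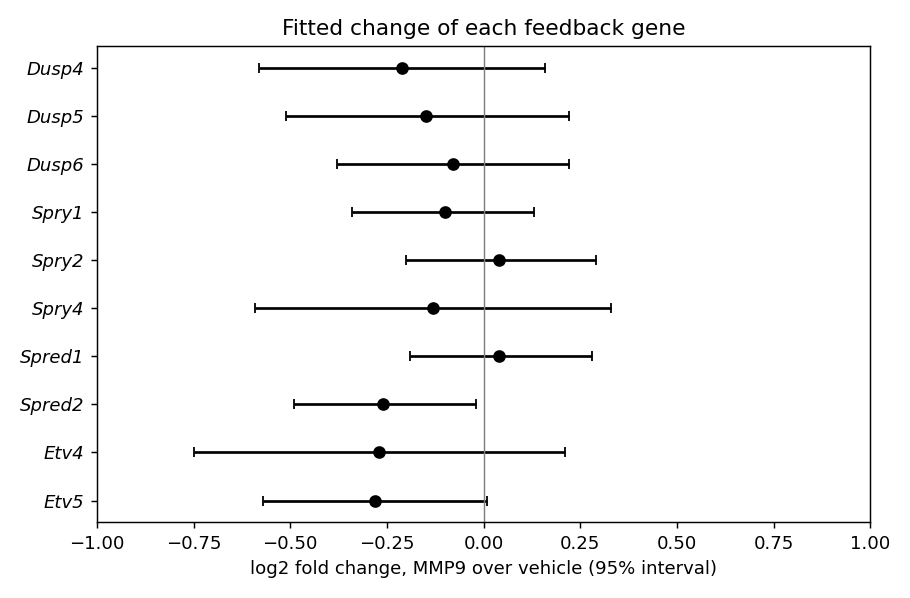
Fitted log2 fold change of each feedback gene, MMP9 over vehicle (horizontal axis), with its 95% interval as a bar and 0 as a grey line. The interval of Spred2, from -0.49 to -0.02, is the only one of the 10 that does not include 0, its unadjusted p was at or above 0.05 in 9 of 21 alternatives, and no gene passed the test after adjustment.

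Whether the members varied together from mouse to mouse was examined over the 45 pairs, on log2 CPM over the 10 libraries. The libraries share depth and tissue makeup, which enter both genes of a pair. Of the 45 pairs, 29 had a positive Pearson r, and the median r was 0.10. Spry4 and Spred1 were the closest pair, with a Pearson r of 0.86 (permutation p 0.00192, adjusted p 0.0596 over the 45 pairs) and a Spearman rho of 0.93 (permutation p 0.00052, adjusted p 0.0234). Without the 2 libraries farthest from the median of Spry4, r was 0.76, and on deviations from the group means it was 0.91, so the relation was present within the groups. Spry1 and Spred2 followed, with r of 0.77 (permutation p 0.00265, adjusted p 0.0596) and rho of 0.68 (permutation p 0.0342, adjusted p 0.751). Without the 2 libraries farthest from the median of Spry1 it was 0.63, and within groups 0.76. No pair passed by Pearson r after adjustment and 1 passed by Spearman rho, while 4 had an unadjusted Pearson p under 0.05.

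**Figure D3:**
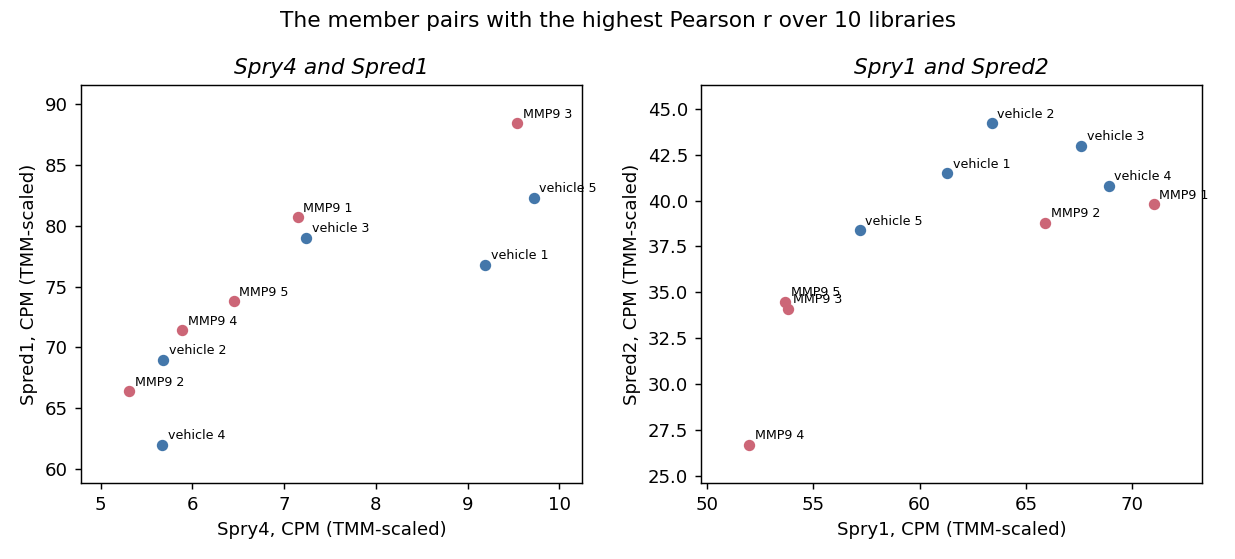
Level of Spry4 against Spred1 and of Spry1 against Spred2 in the 10 libraries, in TMM-scaled CPM on both axes (axes do not start at 0), with vehicle in blue and MMP9 in red. Pearson r of log2 CPM is 0.86 in the left panel, where both groups lie along one band, and 0.77 in the right panel, where MMP9 mouse 4 is lowest on both axes.

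Dusp5 was also part of the other pairs near the top. With Spred1 its r was 0.72 (permutation p 0.0209, adjusted p 0.251) and rho 0.65 (permutation p 0.0503, adjusted p 0.751), with r of 0.70 without the 2 farthest libraries and 0.80 within groups. With Dusp6 its r was also 0.72 (permutation p 0.0223, adjusted p 0.251) and rho 0.56 (permutation p 0.0976, adjusted p 0.756), and r dropped to 0.40 without the 2 farthest libraries, vehicle mice 3 and 5 being high in both genes. As a description, Dusp5 had the highest r with the mean of the other 9 members, 0.85, followed by Dusp6 at 0.52 and Spry4 at 0.51. Spry1, Spry2 and Etv5 stood at -0.03, -0.05 and -0.07 on the same measure.

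How closely the members appeared to vary together depended on the unit. On log2(TPM + 1) all 45 pairs had a positive r, the median r was 0.61 and 8 pairs passed by Pearson r. Without MMP9 mouse 4 the median r on the same scale was 0.11, with 28 of 45 pairs positive, and 0 pairs passed. In that mouse the members summed to 95.2 TPM, against 145 to 184 TPM in the other 9 libraries, and 10 of 10 members were below their own mean in log2(TPM + 1). On the TMM-scaled log2 CPM, 8 of 10 were below their own mean in it, the same number as in MMP9 mouse 5. Ribosomal protein genes made up 24.4% of TPM in this library, and the part of that share in the members' values was not tested. The same choice bears on the direction of the members. On log2(TPM + 1) the log2 fold change was negative for 10 of 10, with a median of -0.043 over all tested genes. Without MMP9 mouse 4 it was negative for 7 of 10 on that scale. The median was then -0.04 over the members and 0.056 over all tested genes. With edgeR on the counts, the log2 fold change was negative for 8 of 10 with that mouse. Without MMP9 mouse 4 it was negative for 9 of 10 by edgeR, with a median of -0.11.

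**Figure D4:**
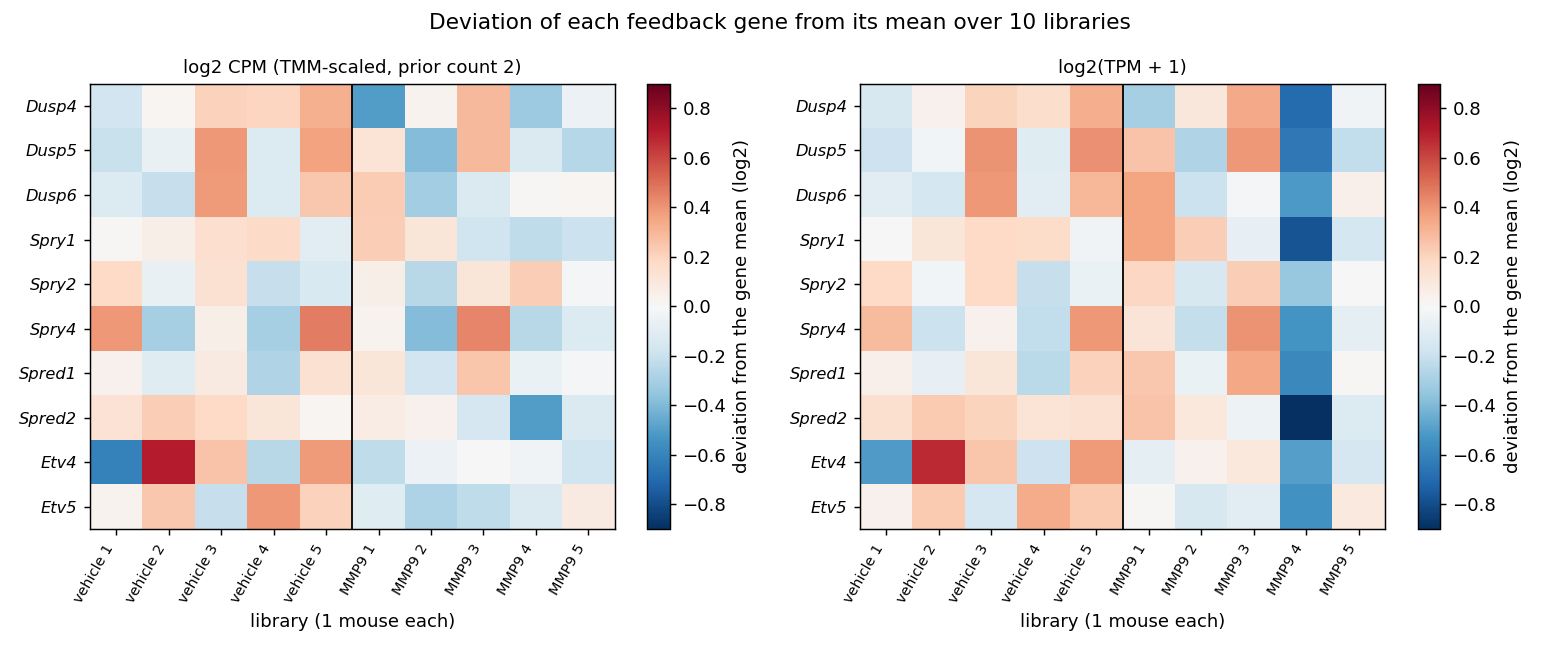
Deviation of each feedback gene (rows) from its own mean in each library (columns, vehicle left and MMP9 right of the line), as log2 CPM on the left and log2(TPM + 1) on the right, with red above and blue below the mean. The column of MMP9 mouse 4 is blue for all 10 genes in TPM and for 8 of 10 in TMM-scaled CPM.

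By a rule set for this purpose, the genes whose levels were most like the mean of the members' standardised log2 CPM were sought among 14611 other tested genes of at least 1 CPM. They were Galnt6, a glycosyltransferase gene, with a Pearson r of 0.91 over the 10 libraries, Hif1a, the gene of the hypoxia-regulated transcription factor subunit, with 0.91, Trabd2b with 0.90, the potassium channel gene Kcnh1 with 0.89 and Selp, the P-selectin gene of endothelium and platelets, with 0.89. These are the highest of many values and carry no test. Without the 2 libraries farthest from the median of the members' mean they were between 0.81 and 0.89. None of the 5 passed in edgeR, with adjusted p of 0.981 for 4 of them and 0.982 for Selp. The members' mean is not a pattern shared by all members, whose median r over the 45 pairs was 0.10. Spry1, Spry2 and Etv5 had r of -0.03, -0.05 and -0.07 with the mean of the other members.

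The rest of the pathway was read from 5 lists. None of the tested genes in any of them passed, and in none did all MMP9 libraries lie on one side of the vehicle libraries. Of the 17 genes of the core cascade from receptor adaptors to ERK, 13 lay below 0 and 4 above it in log2 fold change, the median being -0.02 and the range from -0.21 to 0.12. The smallest p in it belonged to the scaffold gene Ksr1, at 55.4 ± 3.42 CPM with vehicle and 47.8 ± 10.1 CPM after MMP9, Map2k1, which encodes a MEK kinase, at 60.7 ± 4.70 and 66.0 ± 7.67 CPM, and the Ras activator gene Sos2, at 38.7 ± 2.36 and 35.6 ± 4.78 CPM. Of 15 tested receptor genes upstream, 11 were negative, with a median of -0.08. Among them were Fgfr3 at 76.7 ± 10.9 and 67.5 ± 11.8 CPM, Ntrk2 at 61.6 ± 12.8 and 54.5 ± 9.96 CPM, and Erbb2 at 106 ± 16.4 and 95.4 ± 17.9 CPM. Erbb4, with 81 counts over all libraries, was below the filter.

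Of the 21 ligand genes, 11 had positive and 10 negative values, with a median of 0.01. Fgf1, a fibroblast growth factor, had 29.7 ± 4.80 and 23.9 ± 2.89 CPM, and its log2 fold change was -0.31 (standard error 0.13, unadjusted p 0.0320, edgeR adjusted p 0.981). Igf1, an insulin-like growth factor, was at 53.1 ± 18.4 and 71.0 ± 15.0 CPM, and Btc, a ligand of the EGF receptor, at 30.6 ± 6.44 and 36.0 ± 4.54 CPM. Of 19 tested further inhibitor genes of receptor, Ras or MAP kinase signalling, not all of them specific to ERK, 15 were negative, with a median of -0.11. Dusp1, an inducible phosphatase of several MAP kinases, stood at 125 ± 24.0 CPM with vehicle and 95.8 ± 18.6 CPM in MMP9, and its log2 fold change was -0.38 (standard error 0.16, unadjusted p 0.0402, edgeR adjusted p 0.981). Cblb, a ubiquitin ligase gene, was at 38.4 ± 1.59 and 32.9 ± 4.99 CPM and Dusp8 at 20.6 ± 4.10 and 17.1 ± 3.36 CPM. Spry3, with 154 counts over all libraries, was below the filter. Of 20 other genes of the pathway's transcriptional output, 13 were negative, with a median of -0.06, and the smallest p belonged to Egr2 at 63.4 ± 8.67 and 56.5 ± 5.38 CPM, Epha2 at 32.8 ± 6.57 and 27.4 ± 5.79 CPM, and Myc at 81.5 ± 14.5 and 69.9 ± 14.5 CPM. Here too MMP9 mouse 4 was the lowest of all 10 libraries for Fgf1, Dusp1, Cblb, Dusp8, Egr2 and Epha2. It was not the lowest for Igf1, Btc and Myc.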

How the data were processed

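Poly(A)-selected RNA was read as single-end reads of 50 bases on a DNBSeq instrument, per the labels' protocols. The table deposited by the authors holds expected counts (estimated counts of reads per gene, of which 60.8% are not whole) and TPM values with the same total in every library, per the file headers. It also holds FPKM values by the authors, which were not used here. HISAT and GRCm39 are named in the submitters' processing notes. No source used here names the quantification program, versions or strand handling, so counts of overlapping genes are uncertain.

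The estimated counts were rounded to whole numbers. The test came from edgeR 4.0.16 (R 4.3.3), with TMM factors, filterByExpr (15250 genes with 99.95% of counts), a quasi-likelihood fit with treatment as the only term, and Benjamini-Hochberg adjustment over all tested genes, with a threshold of 0.05. It was tested on simulated counts. Levels are TMM-scaled CPM with SD over 5 mice. Standard errors come from the F statistic. Correlations used log2 CPM (prior count 2) with 100000 permutations, two-sided. DESeq2 1.42.0, limma-voom and limma 3.58.1 on log2(TPM + 1) and log2(TPM + 0.1), the mouse number as a block and other settings were alternatives. No 2 libraries of a group were duplicates, the lowest chi-square per gene of the 20 pairs being 18.5.

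The members and lists were chosen with earlier results of these data known. Named are all members, the 3 genes with the smallest p in each pathway list, and the 5 genes most like the members. The promoter motifs were chosen after the sequences were seen.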

Additional observations from a re-analysis of the deposited data

Results flagged for a closer look

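In 48 quantities of the report, each looked at within the 2 groups of 5 mice, 4 of 96 groups held a sample far from the others, and chance flags about 1 in 20 groups. None of these was the level of a feedback gene. The share of ribosomal protein transcripts in MMP9 mouse 4, at 24.4% of TPM, stood apart from the 15.6% to 17.1% of the other MMP9 mice. The summed sebaceous gland markers in vehicle mouse 2, at 3550 TPM, stood apart from 1540 to 1870 TPM in the other vehicle mice. Epha2 in vehicle mouse 3, at 44.3 CPM, stood apart from 27.6 to 31.8 CPM, and Sos2 in vehicle mouse 4, at 42.8 CPM, from 36.8 to 38.4 CPM.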

How the results depend on the processing

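With edgeR 0 genes passed, with 487 at an unadjusted p under 0.05; DESeq2 called 1, Pnliprp2 (adjusted p 0.0384), which is no member, with 620 at an unadjusted p under 0.05. Under an unadjusted p of 0.05 there were 241 genes on log2(TPM + 1), 230 on log2(TPM + 0.1) and 909 on log2(TPM + 1) without MMP9 mouse 4. No feedback gene passed under any of the 21 alternatives, where the lowest adjusted p of a member was 0.887. Of 210 member values under the alternatives, 199 kept their sign and 11 turned it, all in Dusp6, Spry1, Spry2 and Spred1, whose values were near 0. The median over the members lay between -0.25 and -0.04. Leaving out each mouse in turn, the log2 fold change of Dusp6 ran from -0.153 to 0.0138, of Spry2 from -0.0155 to 0.106 and of Spred1 from -0.0251 to 0.0902. On log2(TPM + 1) and log2(TPM + 0.1), Spry2 was at -0.0282 and -0.0300 and Spred1 at -0.0163 and -0.0186. On log2(TPM + 1) without MMP9 mouse 4, an alternative chosen after seeing the data, Spry1 was at 0.0006. Without vehicle mouse 2 and MMP9 mouse 1 together, Spred1 was at -0.0004. For the pairs, 8 passed by Pearson r on log2(TPM + 1) against 0 on log2 CPM, and 0 on log2(TPM + 1) without MMP9 mouse 4. The cause of these sign changes was not tested. The mice carry the same numbers in both groups, but the labels do not tie equal numbers together. The deviations of same-numbered mice 1 to 5 had r of -0.242, -0.0452, 0.455, 0.14 and 0.201, over 0.1 in 3 of 5 pairs. Of the 10 libraries, 3 correlated best with their own number. With the mouse number as a replicate block, 0 genes and 0 members passed and the median over the members was -0.13. Members had 78 to 1770 counts per library and standard errors between 0.11 and 0.22 on the log2 scale. Differences of that size were not detectable with 5 mice a group. Larger fitted values also fell short, with an edgeR adjusted p of 0.981 for Spred2 at -0.26 and Etv5 at -0.28. Differences above the standard errors are therefore not excluded.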
